A study of Homo sapiens with 18 samples.

Results

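The nuclear-encoded subunits of the mitochondrial respiratory chain and ATP synthase were described in HG3, MEC2 and PCL12, 3 EBV-positive cell lines derived from chronic lymphocytic leukemia (CLL). The members were the rows of the counts table whose symbols begin with NDUFA, NDUFB, NDUFC, NDUFS, NDUFV, UQCR, COX4, COX5, COX6, COX7, COX8 or ATP5. Symbols beginning with NDUFAF (12 rows, 8 assembly factors and 4 pseudogenes of NDUFAF4), other symbols ending in P and digits (142 rows, the form used for pseudogenes) and symbols with a hyphen (5) were left out. This left 83 of 56609 rows, of which 37 were assigned by symbol to complex I, 9 to complex III, 19 to complex IV and 18 to complex V. Each line was sequenced unstimulated and after 4 h with 2.5 μg/ml of CpG (ODN-2006, a class B oligonucleotide that activates the receptor TLR9), with 3 replicates in each of the 6 groups and 18 libraries in all. Each line stands for 1 leukemia, and no source states that replicates of a line were separately derived, so p-values measure the spread between these samples, which may be technical.

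The respiratory chain passes electrons from NADH and succinate to oxygen through complexes I to IV and pumps protons across the inner mitochondrial membrane, and complex V (ATP synthase) uses the proton gradient to make ATP. Complexes I, III, IV and V are mosaics: a few core subunits are translated inside mitochondria from mitochondrial DNA, and the rest are nuclear genes whose proteins are imported. In B cells, the pathway is known to be remodelled on activation. The symbols ATP5G1, ATP5G2 and ATP5G3 are used here as the table gives them (now ATP5MC1, ATP5MC2 and ATP5MC3), as are the other ATP5 symbols.

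The libraries held 20382943 to 67308932 counts. Counts of the members made up 0.353% to 0.91% of a library, and 3 counts corresponded to 0.0429 to 0.155 CPM (counts per library size, scaled with edgeR's TMM factors). All 6 B cell markers were detected at 1 CPM or more in every group, with summed levels of 2120 to 3670 CPM, whereas 5 T cell markers summed to at most 4.62 CPM, 5 monocyte markers to at most 3.86 CPM and 5 red cell and platelet markers to at most 0.329 CPM. Mitochondrially encoded genes held 2.82% to 9.28% of counts in 16 libraries, 20.2% in the HG3 library labelled unstimulated replicate 2 and 19.7% in the MEC2 library labelled CpG replicate 2. Both of these libraries also stood apart in the members, so the calls, medians and counts of members that rest on them are given with and without them. A group of 36 genes that separated MEC2 from PCL12 replicate 1 lay at 28.6% to 31.1% of its MEC2 level in PCL12 replicates 2 and 3, against 1.39% to 1.49% in replicate 1, which had been used to choose the group. Differences between MEC2 and PCL12 carry this limit, and the fits of NDUFA10, NDUFS7 and SDHD and the members' medians are also given without PCL12 replicates 2 and 3, which leaves 1 PCL12 library in each condition.

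Of the 83 members, 79 had at least 10 counts over all libraries and were tested, and 74 reached a mean of 1 CPM. The genes below that mean were mostly forms known from other tissues or retrocopies. COX7B2, COX7A1 and the pseudogene ATP5J2LP had 1 count each in all 18 libraries together, and COX6A2, the muscle form of subunit VIa, had 8, all of them in CpG-stimulated PCL12 replicate 1. COX8C had 12 counts, found in 3 libraries. COX4I2, the form of subunit IV known from lung, ranged from 0 to 2 CPM, and COX6B2, known from testis, from 0 to 0.285 CPM. ATP5L2 did not exceed 0.214 CPM in any library. The ubiquitous counterparts were all detected in every library: COX4I1 at 142 to 634 CPM, COX6A1 at 11.4 to 130 CPM, COX6B1 at 38.9 to 338 CPM, COX7A2 at 23.9 to 105 CPM, COX7B at 50.2 to 193 CPM, COX8A at 33.7 to 148 CPM and ATP5L at 74.9 to 378 CPM. NDUFA4L2, a hypoxia-responsive relative of the complex IV subunit NDUFA4, ranged from 0.114 to 5.11 CPM, and UQCRHL, an intronless copy of the complex III hinge gene UQCRH, from 3.69 to 8.01 CPM. The ninth gene below 1 CPM was NDUFA7, a complex I subunit not known as tissue-restricted, at 0 to 0.616 CPM. ATP5S (now DMAC2L) carries a member symbol and was kept with complex V, but it is not a structural subunit of the enzyme. Reads of near-identical copies such as UQCRH and UQCRHL may have been divided between them by the counting.

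**Figure D1:**
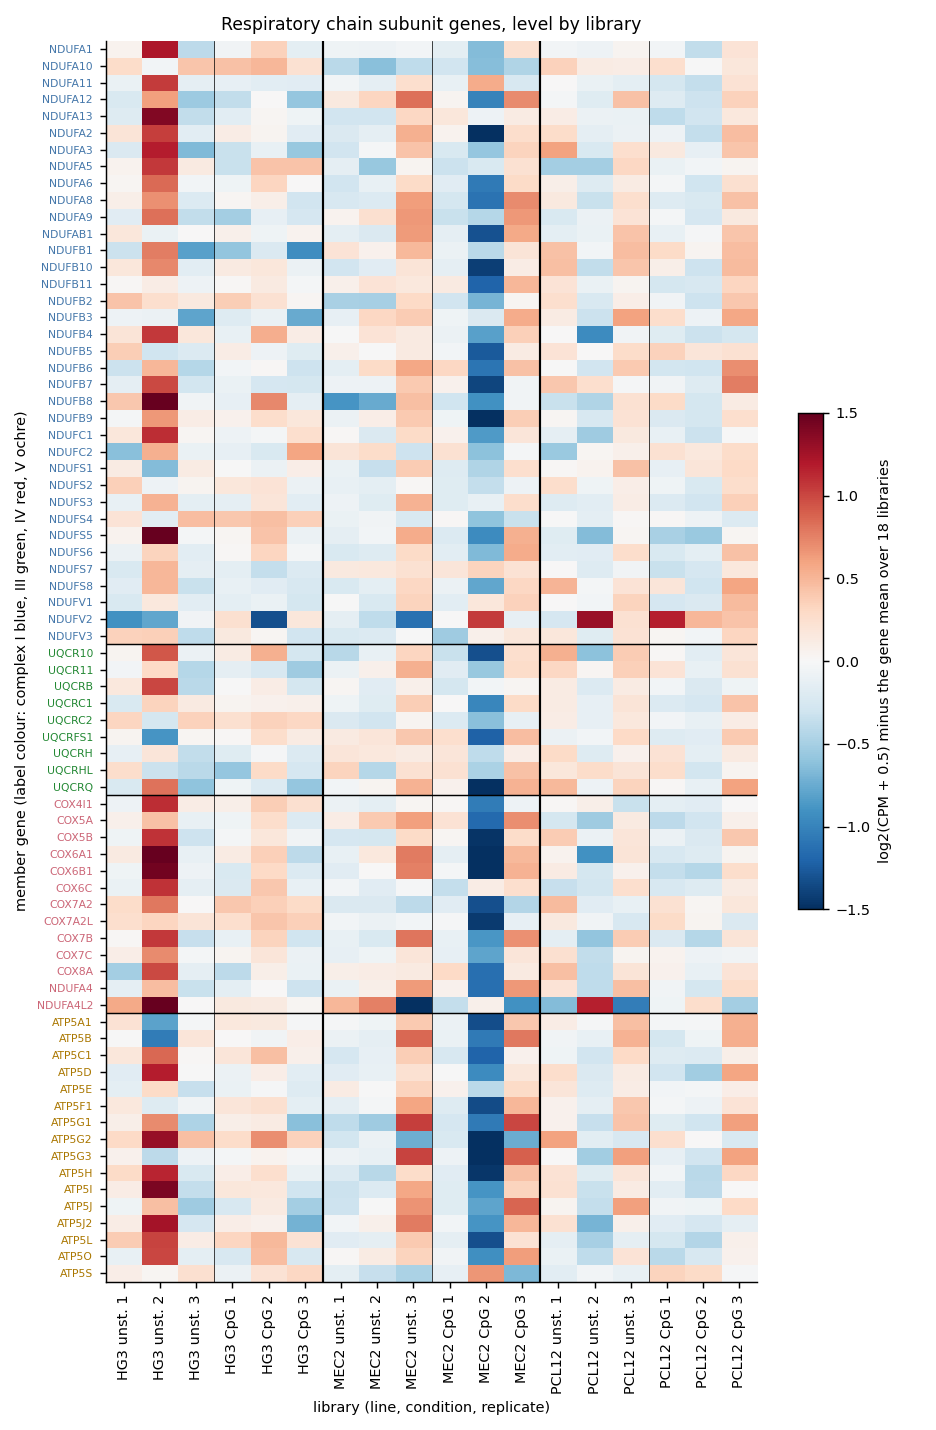
Level of the 74 members that averaged 1 CPM or more in each library, as log2(CPM + 0.5) minus the gene's mean over the 18 libraries; rows are genes by complex, columns are libraries by line, condition and replicate, and colours are clipped at 1.5 in either direction. Unstimulated HG3 replicate 2 is the reddest column, with a sum over members of 9678 CPM, and CpG-stimulated MEC2 replicate 2 is the bluest, with 3796 CPM.

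The first comparison was between lines. In MEC2 against HG3, 2 members were lower in unstimulated cells, NDUFA10 and ATP5G2, and both were lower again in CpG-stimulated cells together with COX7A2; no member was higher in either condition. These are 2 and 3 of 79 members tested, while over all 31872 tested genes the same rule (edgeR quasi-likelihood test, Benjamini-Hochberg adjusted p below 0.05) called 9.78% in unstimulated and 9.13% in CpG-stimulated cells. In the lower direction alone these shares were 4.97% and 4.52%, and in the higher direction 4.81% and 4.61%. Counting only genes that averaged 10 CPM or more, as 71 members did, the called share was 16.2% and 15%, respectively. Between PCL12 and HG3, 0 members were called in unstimulated cells (9.44% of all genes) and 0 in CpG-stimulated cells (8.65%). At an unadjusted P below 0.05 there were 7 and 3 members, against 21.8% and 19.7% of all genes, and 1 and 0 members without PCL12 replicates 2 and 3. Between MEC2 and PCL12, 0 members were called in either condition (2.05% and 1.93% of all genes), and 2 and 3 members had an unadjusted P below 0.05 (11% and 11.4%).

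NDUFA10, an accessory subunit of complex I, gave the most separated values. Its level was 124, 100 and 137 CPM in unstimulated HG3 replicates 1 to 3, 77.3, 66.3 and 78.6 CPM in unstimulated MEC2 and 131, 112 and 111 CPM in unstimulated PCL12. After CpG it was 140, 145 and 120 CPM in HG3, 83.8, 65.7 and 75.1 CPM in MEC2 and 122, 102 and 116 CPM in PCL12. All 6 MEC2 libraries lay below all 12 others. The Log2FC of MEC2 against HG3 was -0.70 (SE 0.214, edgeR adjusted p = 0.0347) in unstimulated and -0.85 (SE 0.215, adjusted p = 0.00947) in CpG-stimulated cells. Against PCL12 it was -0.67 (SE 0.214, adjusted p = 0.127) and -0.59 (SE 0.214, adjusted p = 0.205), which did not pass, and without PCL12 replicates 2 and 3 it was -0.85 (SE 0.338, edgeR adjusted p = 0.323) and -0.71 (SE 0.34, adjusted p = 0.483). Without both libraries rich in mitochondrial counts, the Log2FC against HG3 was -0.82 (edgeR adjusted p = 0.00296) and -0.77 (adjusted p = 0.00766). The call in unstimulated cells was lost when HG3 replicate 1 or 3 or any 1 of the MEC2 replicates was left out (edgeR adjusted p of 0.074 to 0.154), with the Log2FC between -0.75 and -0.60. In CpG-stimulated cells it was lost without HG3 replicate 2 (Log2FC -0.80, edgeR adjusted p = 0.0503).

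ATP5G2 encodes subunit c of ATP synthase, the protein of the rotating membrane ring. Its level in unstimulated cells was 195, 393 and 217 CPM in HG3, 131, 149 and 95.8 CPM in MEC2 and 241, 142 and 134 CPM in PCL12. In CpG-stimulated cells it was 193, 258 and 202 CPM in HG3, 136, 55.1 and 94.5 CPM in MEC2 and 190, 160 and 136 CPM in PCL12. HG3 and MEC2 did not overlap in either condition, and PCL12 spanned the gap in unstimulated cells. The Log2FC of MEC2 against HG3 was -1.10 (SE 0.315, edgeR adjusted p = 0.0231) in unstimulated and -1.19 (SE 0.316, adjusted p = 0.0141) in CpG-stimulated cells. The highest HG3 value and the lowest MEC2 value were in the libraries rich in mitochondrial counts, and without both of them the Log2FC was -0.72 (edgeR adjusted p = 0.0754) in unstimulated and -0.91 (adjusted p = 0.0276) in CpG-stimulated cells. In unstimulated cells the call was also lost without MEC2 replicate 1 (edgeR adjusted p = 0.0752) or replicate 3 (0.122) and without HG3 replicate 2 alone (Log2FC -0.70, 0.193). In CpG-stimulated cells it was lost without HG3 replicate 2 (edgeR adjusted p = 0.0749) or MEC2 replicate 2 (0.0986).

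COX7A2, the ubiquitous form of subunit VIIa of cytochrome c oxidase, was named after its values were seen, since it was called in 1 condition. Its level was 73.3, 105 and 60.8 CPM in unstimulated HG3 and 52, 52 and 45.8 CPM in unstimulated MEC2, and 80, 77.2 and 73.7 CPM against 53.7, 23.9 and 44.5 CPM after CpG. The lines did not overlap in either condition. The Log2FC was -0.68 (SE 0.27, edgeR adjusted p = 0.129) in unstimulated and -0.92 (SE 0.271, adjusted p = 0.0292) in CpG-stimulated cells. Without both libraries rich in mitochondrial counts it was -0.43 (edgeR adjusted p = 0.236) and -0.65 (adjusted p = 0.0553). The CpG-stimulated call was also lost without any 1 of the HG3 replicates (edgeR adjusted p of 0.0608 to 0.0821) or without MEC2 replicate 2 (Log2FC -0.65, 0.164).

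**Figure D2:**
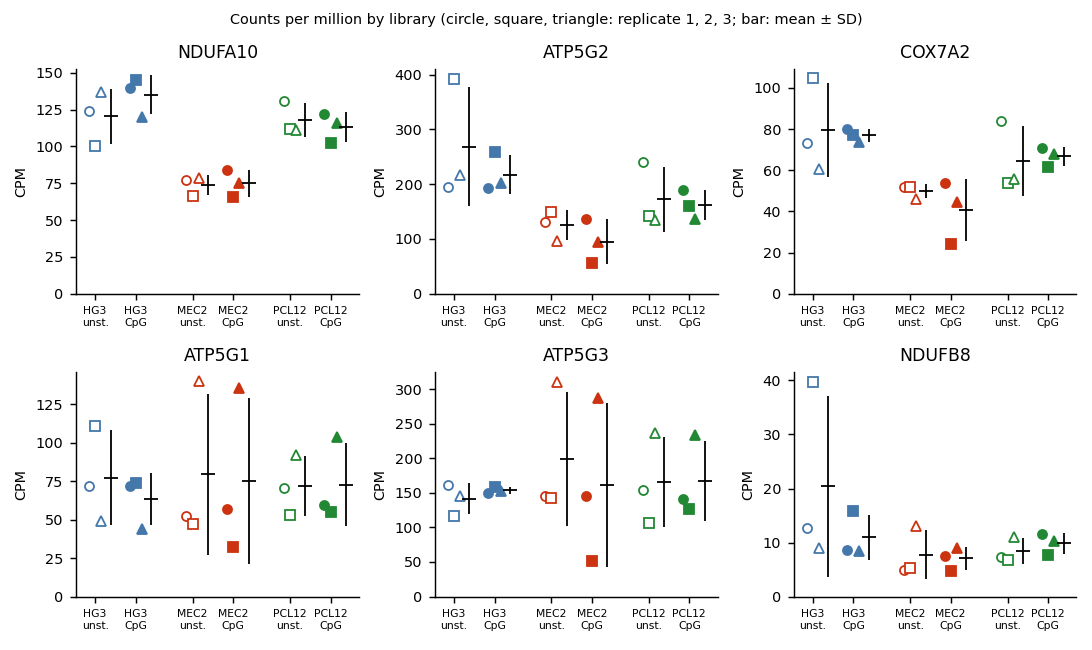
Level in CPM of 6 members by library; open symbols are unstimulated and filled symbols CpG-stimulated cells, circles, squares and triangles are replicates 1, 2 and 3, and the bar beside them is the mean ± SD of 3 libraries. All MEC2 values of NDUFA10 lie between 65.7 and 83.8 CPM, below every value of the other lines, while ATP5G1 and ATP5G3 are highest in replicate 3 of MEC2.

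The genes ATP5G1, ATP5G2 and ATP5G3 encode the same mature subunit c with different import sequences, so their counts were also set side by side, a choice made after their values were seen. Neither ATP5G1 nor ATP5G3 was called between any pair of lines: in unstimulated MEC2 against HG3 the Log2FC was 0.04 (SE 0.498, edgeR adjusted p = 1) for ATP5G1 and 0.50 (SE 0.456, adjusted p = 0.562) for ATP5G3. ATP5G2 held 45.6% to 63.3% of the counts of the trio in the 6 HG3 libraries and 39.9% to 44% in replicates 1 and 2 of MEC2. In replicate 3 of MEC2 its share was 17.5% unstimulated and 18.3% after CpG. PCL12 showed the same split by replicate, with 46.9% to 51.7% in replicates 1 and 2, and 29% and 28.8% in replicate 3. The genes that separate MEC2 from PCL12 replicate 1 lay at 28.6% to 31.1% of their MEC2 level in both replicates 2 and 3 of PCL12, and their part in the likeness of PCL12 to MEC2 in replicate 3 was not tested. ATP5G3 moved the other way: its level was 311 and 287 CPM in MEC2 replicate 3, against 142 to 146 CPM in MEC2 replicates 1 and 2 except the CpG-stimulated replicate 2, where it was 50.9 CPM. ATP5G1 was 140 and 136 CPM in MEC2 replicate 3 and 32.2 to 57.1 CPM in the other MEC2 libraries. The replicate number thus divided these genes within MEC2 and PCL12 in both conditions. With the replicate number as a block, the Log2FC of ATP5G2 in unstimulated MEC2 against HG3 was -1.12 (edgeR adjusted p = 0.0134). That block gives a replicate number the same effect in all lines. In HG3 replicate 3 the share of ATP5G2 was 52.7% unstimulated and 50.8% after CpG, so the block cannot fully absorb the split of MEC2 and PCL12.

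**Figure D3:**
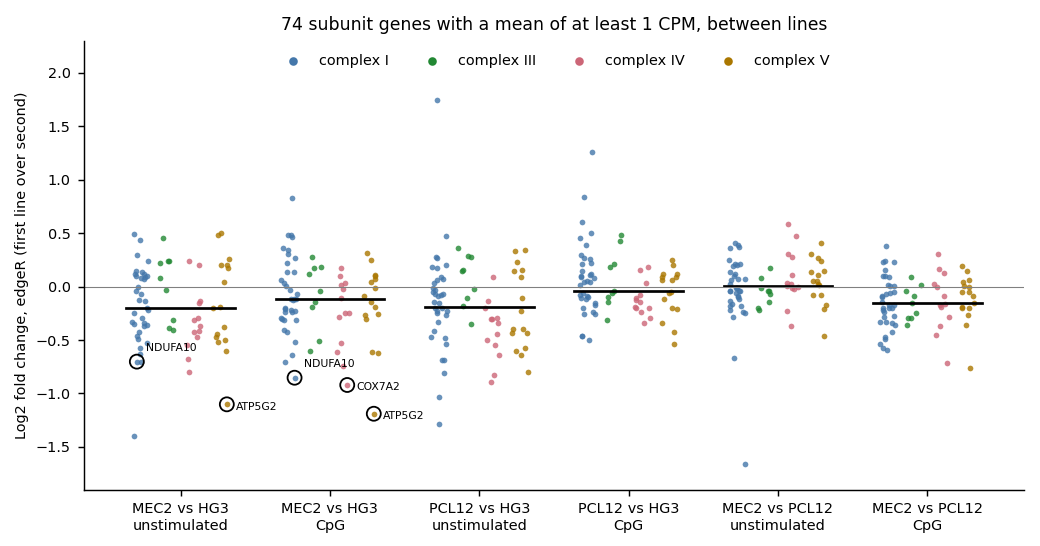
Log2FC from edgeR of the 74 members that averaged 1 CPM or more for each pair of lines in each condition; each point is a gene coloured by complex, the black line is the median, and circled points have an adjusted p below 0.05. Medians lie between -0.2 and 0.004, and the circled genes are NDUFA10 and ATP5G2 in both conditions and COX7A2 after CpG, all in MEC2 against HG3.

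Over the 74 expressed members, the median Log2FC in unstimulated cells was -0.20 for MEC2 against HG3, -0.19 for PCL12 against HG3 and 0.004 for MEC2 against PCL12. The first of these turned to 0.14 and the second to 0.09 without unstimulated HG3 replicate 2, and the third to -0.18 without unstimulated MEC2 replicate 3 and -0.09 without unstimulated PCL12 replicate 2. In CpG-stimulated cells the medians were -0.12, -0.04 and -0.15, and each turned with 1 library left out. The first and the last turned to 0.11 and 0.10 without CpG-stimulated MEC2 replicate 2, and the second to 0.06 without CpG-stimulated HG3 replicate 2. Without PCL12 replicates 2 and 3 the medians of MEC2 against PCL12 were -0.05 unstimulated and -0.08 after CpG, and those of PCL12 against HG3 -0.07 and -0.12. By complex, the median of unstimulated MEC2 against HG3 was -0.17 for 36 complex I genes, 0.08 for 9 complex III genes, -0.37 for 13 complex IV genes and -0.20 for 16 complex V genes. The 7 catalytic core genes of complex I, which carry the flavin and iron-sulfur centres, had a median of 0.08, and 0 of them were called. They include NDUFV2, which averaged only 0.46 CPM in unstimulated HG3 and 0.50 CPM in unstimulated MEC2. Without unstimulated HG3 replicate 2 these medians were 0.12 for complex I, 0.14 for complex III, 0.15 for complex IV, 0.17 for complex V and 0.27 for the catalytic core, so 3 of the 4 complexes changed sign.

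A simpler view counts genes whose 3 libraries in one line lay entirely above or below the 3 in the other. Among the 71 members that averaged 10 CPM or more, 1 was higher and 6 were lower in unstimulated MEC2 than in HG3, where 19.5% and 16.2% of all genes at such levels were separated in the same directions. The higher one was UQCRFS1, the Rieske iron-sulfur protein of complex III, with a Log2FC of 0.46 (SE 0.314, edgeR adjusted p = 0.399), and 0.23 (SE 0.319, adjusted p = 0.779) without unstimulated HG3 replicate 2. In CpG-stimulated cells 1 was higher and 9 were lower (17.3% and 17.7% of genes). For PCL12 against HG3 the counts were 0 higher and 4 lower in unstimulated cells (15.4% and 13.9%), and 4 higher and 7 lower after CpG (19.3% and 21.5%). For MEC2 against PCL12 they were 1 higher and 2 lower (13.9% and 13.6%), and 1 higher and 5 lower after CpG (12.8% and 11.6%). Without both libraries rich in mitochondrial counts, which leaves 2 libraries in a group and so separates more genes, MEC2 against HG3 had 15 higher and 9 lower members unstimulated (23.6% and 26.9% of genes) and 14 higher and 10 lower after CpG (24.8% and 23.5%). In the same libraries unstimulated PCL12 against HG3 had 9 higher and 6 lower (20.1% and 25.6%), and CpG-stimulated MEC2 against PCL12 had 5 higher and 6 lower (19.2% and 16.3%). NDUFS7, an iron-sulfur subunit of complex I, was above PCL12 in MEC2 in both conditions (Log2FC 0.25, SE 0.227, edgeR adjusted p = 0.754, and 0.38, SE 0.227, adjusted p = 0.486). Without PCL12 replicates 2 and 3 its Log2FC was 0.14 (SE 0.365, edgeR adjusted p = 1) and 0.58 (SE 0.375, adjusted p = 0.611).

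The other comparison was the effect of CpG in each line, the ratio that the study was designed to measure. After 4 h, 0 of 79 members were called in HG3, MEC2 or PCL12 by edgeR, by DESeq2 or by limma-voom. Few genes of any kind passed: edgeR called 0.00314% of them in HG3, 0.00314% in MEC2 and, for PCL12, 0%. At an unadjusted P below 0.05 there were also 0 members in each line, where 3.73%, 2.46% and 2.09% of all genes passed. Averaged over lines 0 members were called (0.00941% of all genes), with 0 at an unadjusted P below 0.05 (4.04%). The test of a difference in CpG response between lines likewise called 0 members (0% of all genes). The median SE of a member's Log2FC was 0.317.

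The median Log2FC of the 74 expressed members was -0.22 for HG3, -0.19 for MEC2 and -0.04 for PCL12 (-0.16 without PCL12 replicates 2 and 3). Of these genes 59, 62 and 49 lay below 0, against 42%, 51.3% and 52.7% of all genes that averaged 10 CPM or more. Without both libraries rich in mitochondrial counts the numbers below 0 were 21, 21 and 49 (62.9%, 49.7% and 52.8% of such genes). Within replicates, the median log2 ratio was -0.04, -0.53 and 0.03 for HG3 replicates 1 to 3, 0.03, -0.82 and -0.05 for MEC2, and -0.16, 0.05 and 0.05 for PCL12. The low values in HG3 and MEC2 were both in replicate 2, which holds the libraries rich in mitochondrial counts. Without unstimulated HG3 replicate 2 the median in HG3 was 0.09, and without CpG-stimulated MEC2 replicate 2 the median in MEC2 was 0.06. With the replicate number as a block, again 0 members were called (0.135%, 0.333% and 0.0471% of all genes), but 6 in HG3 and 17 in MEC2 had an unadjusted P below 0.05, all of them lower after CpG. These are 7.59% and 21.5% of the members, against 1.37% and 1.58% of all genes in that direction, and they include the replicate 2 pairs. In PCL12 the blocked fit gave 0 such members (0.602% of all genes). Averaged over lines it called 0 members (0.555% of all genes), and 14 members (17.7%) had an unadjusted P below 0.05, all lower after CpG, against 1.82% of all genes in that direction. The lowest adjusted p among them was 0.0982, for COX6B1, a subunit of cytochrome c oxidase. These counts rest on the libraries rich in mitochondrial counts: in the blocked fit without both of them, 0 members were lower at an unadjusted P below 0.05 in HG3, MEC2, PCL12 or averaged over lines (1.28%, 2.35%, 2.06% and 3.47% of all genes), and 0 were called (0.208%, 0.563%, 0.615% and 1.32%).

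Among the 74 genes, 0 were above 0 in all 9 replicate pairs and 2, named after their values were seen, were below 0 in all 9. Over all 13991 genes that averaged 1 CPM or more, the shares were 0.536% and 0.422%. NDUFA12, an accessory complex I subunit, had log2 ratios of -0.14, -0.61 and -0.03 for HG3, -0.10, -1.33 and -0.12 for MEC2 and -0.16, -0.13 and -0.10 for PCL12. UQCR11, a small complex III subunit, had -0.09, -0.53 and -0.10 for HG3, -0.09, -0.65 and -0.26 for MEC2 and -0.11, -0.14 and -0.13 for PCL12. Averaged over lines, their Log2FC was -0.28 (SE 0.199, edgeR adjusted p = 1) and -0.24 (SE 0.173, adjusted p = 1). These averages include the libraries rich in mitochondrial counts, and in HG3 and MEC2 the lowest ratio of both genes was in replicate 2. None of the 3 genes called between lines was called for CpG in any line, with an edgeR adjusted p of 1 for each. The Log2FC after CpG of NDUFA10 was 0.17 (SE 0.213) for HG3, 0.02 (SE 0.213) for MEC2 and -0.06 (SE 0.213) for PCL12. That of ATP5G2 was -0.31 (SE 0.312), -0.39 (SE 0.312) and -0.09 (SE 0.311), and that of COX7A2 -0.05 (SE 0.269), -0.30 (SE 0.27) and 0.05 (SE 0.269). With the replicate number as a block, ATP5G2 was among the members with an unadjusted P below 0.05 in MEC2 (Log2FC -0.46, SE 0.21, edgeR adjusted p = 1) and averaged over lines (-0.25, SE 0.119, adjusted p = 0.99). Without both libraries rich in mitochondrial counts the unblocked Log2FC of ATP5G2 was 0.08 for HG3 and -0.12 for MEC2.

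**Figure D4:**
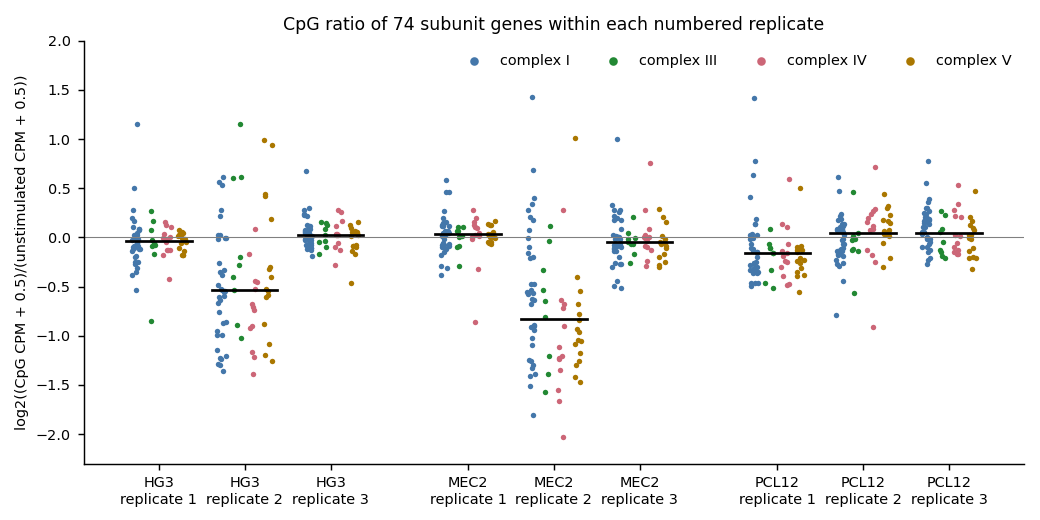
Log2 ratio of CpG-stimulated to unstimulated CPM, with 0.5 CPM added to each, for the 74 members within each numbered replicate of each line; points are genes coloured by complex and black lines are medians. The medians lie between -0.16 and 0.05 except in replicate 2 of HG3 (-0.53) and MEC2 (-0.82).

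The members did not deviate uniformly in the libraries that stood apart. In unstimulated HG3 replicate 2 the members' median deviation from the other 2 replicates was 0.76 on the log2 scale, against -0.30 for all genes that averaged 10 CPM or more. The median absolute deviation was 0.87 for the members and 0.58 for all such genes. By complex, the members' median deviation was 0.75 for complex I, 0.43 for complex III, 1.2 for complex IV and 0.77 for complex V. It was 1.00 for 45 members whose canonical transcript is at most 1000 bases long and 0.38 for the 29 longer ones. Several genes of large catalytic subunits went the other way: ATP5B, the catalytic beta subunit of ATP synthase, was 382 CPM there against 788 and 891 CPM in its group, and NDUFS1, the largest complex I core subunit, was 69.7 against 119 and 119 CPM. In CpG-stimulated MEC2 replicate 2 the members' median deviation was -1.03, and it was similar in short (-1.02) and long members (-1.12). For all genes that averaged 10 CPM or more it was -0.05. The median absolute deviation in this library was 1.05 for the members and 0.45 for all such genes. COX6A1 was 11.4 CPM there against 39.1 and 60.3 CPM in its group. Mitochondrially encoded mRNA counts per member count were 47.8 in that library, 18.4 in unstimulated HG3 replicate 2 and 2.64 to 10.5 in the other libraries.

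Replicate 3 of MEC2 and PCL12 was high in both conditions. The summed level of all members was 9098 and 8803 CPM in MEC2 replicate 3, unstimulated and CpG-stimulated, and 8049 and 8355 CPM in PCL12 replicate 3. The other MEC2 and PCL12 libraries summed to 6000 to 7301 CPM, with the exception of 3796 CPM in CpG-stimulated MEC2 replicate 2. The summed level of complex V was 4050 and 3884 CPM in MEC2 replicate 3 against 2522 to 2526 CPM in both unstimulated MEC2 replicates 1 and 2 and CpG-stimulated replicate 1. ATP5B stood at 1430 and 1360 CPM in MEC2 replicate 3 and 1130 and 1150 CPM in PCL12 replicate 3, and at 654 to 757 CPM in replicates 1 and 2 of both lines other than CpG-stimulated MEC2 replicate 2 (377 CPM). By group, the sum was 7820 ± 1623 CPM in unstimulated HG3, 7310 ± 1549 in unstimulated MEC2 and 7117 ± 1037 in unstimulated PCL12 (SD, n = 3 each), and 7137 ± 545, 6354 ± 2505 and 6942 ± 1232 CPM after CpG. The groups overlapped.

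**Figure D5:**
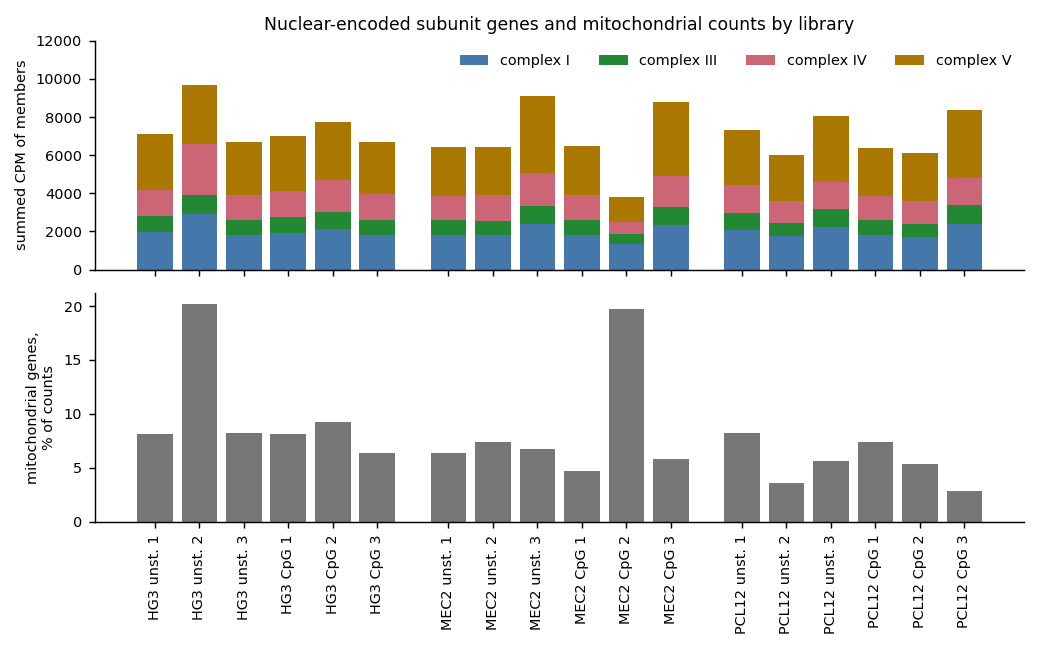
Summed CPM of the members by complex (upper panel, stacked bars) and the percentage of counts from mitochondrially encoded genes (lower panel, bars) in each library. Member sums range from 3796 to 9678 CPM, with replicate 3 of MEC2 and PCL12 at 8049 to 9098 CPM in both conditions, and 2 libraries reach about 20% mitochondrial counts.

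Genes that work with the members were taken from lists of assembly factors, regulators and other subunits. SDHD, a membrane anchor of complex II, which has no member under the symbol rule, was lower in MEC2. Its level was 69.4, 100 and 63.3 CPM in unstimulated HG3, 38.1, 34.2 and 50.1 CPM in MEC2 and 76.4, 61.1 and 83.2 CPM in PCL12, with no overlap between MEC2 and the others. The Log2FC of MEC2 against HG3 was -0.93 (SE 0.271, edgeR adjusted p = 0.0265) unstimulated and -1.14 (SE 0.273, adjusted p = 0.00629) after CpG, and against PCL12 it was -0.85 (SE 0.271, adjusted p = 0.126) unstimulated and -1.38 (SE 0.274, adjusted p = 0.00457) after CpG. Without PCL12 replicates 2 and 3 the last pair of values was -0.93 (SE 0.406, edgeR adjusted p = 0.415) and -1.5 (SE 0.397, adjusted p = 0.0534). SDHD was the 1 gene called in its list of 6, where 9.78%, 9.13% and 1.93% of all genes were called in the comparisons it passed.

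Of 20 complex IV assembly factors, 1 was higher and 2 were lower in unstimulated MEC2 than in HG3, near the 9.78% of all genes and 16.2% of genes at 10 CPM or more that were called. COX10, which acts in the making of heme A for cytochrome c oxidase, was 33.7, 21.8 and 38.7 CPM in HG3 and 15, 12.3 and 14.1 CPM in MEC2 (Log2FC -1.19, SE 0.268, edgeR adjusted p = 0.00348). It was lower again after CpG (-1.16, SE 0.268, adjusted p = 0.00449). SCO2, which delivers copper to the oxidase, was lower in unstimulated MEC2 (Log2FC -0.95, SE 0.264, edgeR adjusted p = 0.0184). COX19, of the copper pathway, named beyond the 3 genes set for a list, was higher in MEC2, with a Log2FC of 0.87 (SE 0.272, edgeR adjusted p = 0.0406) unstimulated and 0.98 (SE 0.273, adjusted p = 0.0203) after CpG. COA7 was higher in PCL12 than in HG3 (Log2FC 1.00, SE 0.235, edgeR adjusted p = 0.005 unstimulated, and 0.78, SE 0.233, adjusted p = 0.0332 after CpG). Of all genes, 9.13% were called in CpG-stimulated MEC2 against HG3. In PCL12 against HG3 the share was 9.44% unstimulated and 8.65% after CpG.

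Of 6 complex III assembly factors, TTC19 was lower in MEC2 than in HG3, unstimulated (Log2FC -0.95, SE 0.257, edgeR adjusted p = 0.0161) and after CpG (-1.26, SE 0.259, adjusted p = 0.00145). LYRM7, a chaperone of the Rieske protein, was higher in unstimulated MEC2 (1.04, SE 0.31, edgeR adjusted p = 0.0306). These are 2 and 1 of 6 genes, where 9.78% and 9.13% of all genes were called. Of 14 complex I assembly factors, NDUFAF4 was lower in PCL12 than in HG3 (Log2FC -1.19, SE 0.284, edgeR adjusted p = 0.0057, and -0.94, SE 0.282, adjusted p = 0.0334 after CpG). NDUFAF2 was lower in MEC2 than in HG3 after CpG (-1.07, SE 0.342, edgeR adjusted p = 0.048). In each of these comparisons 1 of the 14 was called, a share of the list not above the 9.44%, 8.65% and 9.13% of all genes. Among 4 ATP synthase assembly factors and 13 mitochondrially encoded mRNAs, 0 were called in any line comparison. The median Log2FC of those mRNAs was -0.85 in unstimulated MEC2 against HG3 and 0.42 after CpG, and -0.23 and -0.56 without both libraries rich in mitochondrial counts. For PCL12 against HG3 it was -1.14 unstimulated and -0.70 after CpG, and -0.55 and -0.70 without both. For MEC2 against PCL12 it was 0.26 unstimulated and 1.07 after CpG, and 0.26 and 0.06 without both.

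Of 12 regulators of respiratory genes, 1 was called in each comparison with HG3, where 8.65% to 9.78% of all genes were, a share close to that of 1 in 12. It was PPARGC1A, a coactivator known for driving mitochondrial biogenesis. Its level was low, at 0.571, 3.51 and 4.71 CPM in unstimulated HG3 and 0.654, 2.84 and 3.72 CPM in CpG-stimulated HG3. It was at 0 counts in 5 of 6 MEC2 libraries and at 0.0817 CPM in the other, and in PCL12 it was at 0 in 4 libraries and at 0.107 and 0.215 CPM in the other 2. The edgeR adjusted p against HG3 was 0.00508 for unstimulated MEC2, 0.0019 for CpG-stimulated MEC2, 0.00647 for unstimulated PCL12 and 0.0231 for CpG-stimulated PCL12. In HG3, all 6 libraries lay above all 12 others.

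Several of these calls depended on single libraries or on the fit. Leaving out each of the 6 libraries of a comparison in turn kept COX10 in both conditions, SDHD and TTC19 after CpG, COA7 and NDUFAF4 in unstimulated PCL12, and PPARGC1A in every comparison other than CpG-stimulated PCL12, where 2 of 6 fits kept it. SDHD and TTC19 in unstimulated MEC2 were kept in 3 of 6 fits each, with edgeR adjusted p up to 0.141 without HG3 replicate 2 for SDHD and 0.108 without HG3 replicate 3 for TTC19. SCO2, LYRM7 and COX19 (in each condition) were kept in 2 of 6 fits, NDUFAF2 and CpG-stimulated COA7 in 1 and CpG-stimulated NDUFAF4 in 0. Without both libraries rich in mitochondrial counts, LYRM7 (edgeR adjusted p = 0.111), NDUFAF2 (0.135) and COX19 (0.0883 unstimulated and 0.0611 after CpG) were not called. Without PCL12 replicates 2 and 3, which leaves 1 PCL12 library in each condition that is assumed to vary like the other groups, COA7 was not called against HG3 (edgeR adjusted p = 0.277 unstimulated and 0.416 after CpG), and neither was PPARGC1A (0.0546 and 0.35). The same fit lost the calls after CpG of NDUFAF4 in PCL12 against HG3 (edgeR adjusted p = 0.13) and of SDHD in MEC2 against PCL12 (0.0534). It also lost those of SDHD (0.055) and COX19 (0.088) in unstimulated and of NDUFAF2 (0.0849) in CpG-stimulated MEC2 against HG3. A fit of only the groups compared lost most calls in unstimulated cells, namely SDHD (edgeR adjusted p = 0.0699), TTC19 (0.0769), SCO2 (0.0699), COX19 (0.138) and LYRM7 (0.0654) in MEC2 and NDUFAF4 (0.0652) and COA7 (0.0647) in PCL12, and that of NDUFAF2 after CpG (0.092), while the Log2FC of these 8 calls moved by at most 0.027. Library totals in place of TMM lost SDHD unstimulated (0.0594), NDUFAF4 after CpG (0.0701) and NDUFAF2 (0.0587), and NDUFAF2 was also lost with RLE scaling (0.0549). With no filter COX19 unstimulated (0.0562) and COA7 after CpG (0.0614) were lost, and limma-voom did not call COX19 unstimulated (0.0777). PPARGC1A in CpG-stimulated PCL12 was not called with the replicate block (edgeR adjusted p = 0.102) or by DESeq2 (adjusted p = 0.0691).

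The start regions of the members were searched for the letters of factors known to act on respiratory genes, using RefSeq promoters (GRCh38.p14, 250 bases before and 50 after the start), which were at hand for 65 members. The YY1 letters AAGATGG, on either strand, were in 15 of them (23.1%), against 6.06% of 27195 promoters and 7.92% of the 9687 promoters of genes that averaged 1 CPM or more in these cells. Of 16 YY1 matches, 13 lay within 50 bases of the start. The ETS letters CCGGAAG were in 17 (26.2%, against 10.7% and 20.1%), and the NRF1 palindrome, GCGCA followed by its reverse complement, in 3 (4.62%, against 1.36% and 2.31%). No letter string holds another, and a match is a description of the sequence only. The promoters of the called genes NDUFA10 and ATP5G2 are shown because neither holds any of the 3 letter strings, and those of NDUFS4, an accessory complex I subunit, and ATP5I, subunit e of ATP synthase, because they show where the matches lie. Capitals mark a match, AAGATGG for YY1 and CTTCCGG, the reverse complement of CCGGAAG, for ETS.
NDUFA10, chr2:240025293-240025592, minus strand: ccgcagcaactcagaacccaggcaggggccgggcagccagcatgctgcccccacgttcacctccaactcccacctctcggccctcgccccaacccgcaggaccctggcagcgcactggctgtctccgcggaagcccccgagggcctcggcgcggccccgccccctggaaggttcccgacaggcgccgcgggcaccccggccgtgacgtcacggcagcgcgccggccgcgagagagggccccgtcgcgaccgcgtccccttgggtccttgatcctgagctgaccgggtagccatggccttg
ATP5G2, chr12:53676034-53676333, minus strand: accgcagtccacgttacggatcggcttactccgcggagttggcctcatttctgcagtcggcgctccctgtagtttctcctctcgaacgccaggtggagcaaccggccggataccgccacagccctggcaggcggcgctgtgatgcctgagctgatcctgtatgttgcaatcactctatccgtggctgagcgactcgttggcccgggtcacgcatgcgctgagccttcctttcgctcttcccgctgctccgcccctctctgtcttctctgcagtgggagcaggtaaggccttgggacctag
NDUFS4, chr5:53560389-53560688, plus strand: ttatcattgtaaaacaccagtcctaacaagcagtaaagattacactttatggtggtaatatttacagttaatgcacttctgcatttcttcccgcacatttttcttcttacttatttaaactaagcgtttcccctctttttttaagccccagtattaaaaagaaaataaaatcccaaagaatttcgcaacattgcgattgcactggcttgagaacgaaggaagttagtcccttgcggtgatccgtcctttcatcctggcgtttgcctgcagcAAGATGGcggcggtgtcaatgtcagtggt
ATP5I, chr4:674227-674526, minus strand: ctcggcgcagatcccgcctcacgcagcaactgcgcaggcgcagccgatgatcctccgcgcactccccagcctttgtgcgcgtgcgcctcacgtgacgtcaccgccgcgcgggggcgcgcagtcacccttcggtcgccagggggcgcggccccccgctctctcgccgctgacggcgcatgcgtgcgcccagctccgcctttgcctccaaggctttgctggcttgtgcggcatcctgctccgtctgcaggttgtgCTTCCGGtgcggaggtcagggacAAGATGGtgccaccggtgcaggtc
In NDUFS4 the match begins 21 bases after the start, and in ATP5I the YY1 match begins 26 bases after it. NDUFS4 was 1 of the 9 members lower in CpG-stimulated MEC2 than in HG3 without overlap, as were 17.7% of all genes that averaged 10 CPM or more. Its Log2FC was -0.70 (SE 0.244, edgeR adjusted p = 0.073), and -0.56 (adjusted p = 0.224) without CpG-stimulated MEC2 replicate 2. NDUFS4 was called by DESeq2, with the filterByExpr filter and without CpG-stimulated MEC2 replicate 1.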

How the data were processed

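RNA from HG3, MEC2 and PCL12 cells was sequenced in 18 libraries. The authors deposited raw counts per gene symbol; per the labels and the submitters' processing notes they used Trimmomatic, STAR, featureCounts, FastQC and MultiQC with hg38. Sources differ on the kits (Qiagen extraction and a stranded reverse protocol in the methods, Promega extraction and Lexogen Stranded Quantseq in the labels), and the strand setting of the counting is not given in the sources used here. With a 3' protocol counts do not scale with length, and CPM of different genes are not on 1 scale, so each gene, and each share among the ATP5G genes, was compared across libraries only.

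Counts were fitted in edgeR 4.0.16 (R 4.3.3, robust quasi-likelihood, TMM, genes with at least 10 summed counts, 6 group means, 12 residual degrees of freedom) over all genes, with Benjamini-Hochberg adjustment over all genes and calls at adjusted p below 0.05. The script was checked on simulated counts. Alternatives were DESeq2 1.42.0, limma-voom 3.58.1, other scalings and filters, fits of only the groups compared, and fits without libraries. The series' design pairs same-numbered samples, whose deviations from group means correlated at 0.0172 to 0.661 over 13991 genes. The replicate block was an alternative, set within each line for CpG and shared by all lines for comparisons between lines. Named genes were members called in both conditions, up to 3 per other list (COX19 is beyond these), paralogs and members under 1 CPM; other members were named after their values were seen. Members and lists were chosen with earlier results of these data known. Gene positions came from GENCODE v44, promoters from RefSeq.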

Additional observations from a re-analysis of the deposited data

How the results depend on the processing

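The CpG counts of called members stayed at 0 in HG3, MEC2, PCL12, their average and the difference between lines under every alternative run, including the replicate block with all libraries or without both libraries rich in mitochondrial counts (chosen after seeing the data) and each library left out. The block, which is shared by all lines in comparisons between them, changed no call of a member between lines: 2 members in unstimulated and 3 in CpG-stimulated MEC2 against HG3. In unstimulated MEC2 against HG3 the count of lower members was 3 by DESeq2 (with NDUFB8), 1 with library totals, 0 in a fit of only the groups compared, 1 without PCL12 replicates 2 and 3 and 1 without both libraries rich in mitochondrial counts, an alternative chosen after seeing the data. It ranged from 0 to 2 with 1 library left out, and the count of higher members from 0 to 0. With no filter 2 were lower, with NDUFB8 in place of NDUFA10 (edgeR adjusted p = 0.0967). In CpG-stimulated MEC2 against HG3 the count of called members was 5 by DESeq2, 5 by limma-voom and 5 with filterByExpr. It was 2 without PCL12 replicates 2 and 3 (COX7A2 lost, edgeR adjusted p = 0.0507) and 2 without both libraries rich in mitochondrial counts, and ranged from 0 (without HG3 replicate 2) to 5 (without MEC2 replicate 1) with 1 library left out. In unstimulated PCL12 against HG3 the count of lower members was 1 by DESeq2, 4 with no filter and 0 to 2 with 1 library left out, and 1 member, NDUFB1, was higher without both libraries rich in mitochondrial counts. After CpG, 1 member was called between PCL12 and HG3 in a fit of only the groups compared and 1 without both libraries, again NDUFB1. In MEC2 against PCL12, NDUFA10 was the 1 lower member in unstimulated cells by DESeq2, the 1 in a fit of only the groups compared and the 1 without both libraries, and the 1 called by DESeq2 after CpG. All other counts that left out 1 library were 0. The cause of these changes was not tested. Without unstimulated HG3 replicate 3, the Log2FC of NDUFB1 turned to -0.019 for PCL12 against HG3 and to -0.062 for MEC2 against HG3, from 0.28 and 0.24, and the highest values with 1 library left out were 0.898 and 0.848 (without replicate 2).

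Replicate 2 of HG3 and MEC2 decides the sign of the members' median CpG change in those lines, and in PCL12 the median of -0.04 turned, to at most 0.053, without any 1 of 3 libraries. Depth limits members below about 1 CPM, where 3 counts are 0.0429 to 0.155 CPM.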

Other observations

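Several members share transcript sequence with another gene on the same strand in GENCODE v44, and how such reads were counted is not given in the sources used here. The shared part of the canonical transcript was 90% for NDUFV2, 83.9% for NDUFA13, 77.9% for NDUFA7, 72% for NDUFB8, 68.2% for NDUFA11 and 63.8% for ATP5O. NDUFV2, a flavoprotein subunit of the complex I core, was listed at 0.0605 to 2.92 CPM and NDUFA7 at 0 to 0.616 CPM. NDUFA13 was listed at 18.4 to 63.9 CPM, NDUFA11 at 17.1 to 46 CPM and ATP5O at 19.8 to 77 CPM. NDUFB8 ranged from 4.75 to 39.7 CPM, and its highest value was in unstimulated HG3 replicate 2. In unstimulated MEC2 against HG3 its Log2FC was -1.40 (SE 0.472, edgeR adjusted p = 0.0617), and -0.47 (adjusted p = 0.604) without that library. DESeq2 (adjusted p = 0.0226), edgeR with no filter (0.00947) and 3 of 6 fits with 1 library left out (0.0155 to 0.0365) called it.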
